A study of Mus musculus with 6 samples.

Results

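The microRNAs (miRNAs) miR-146a and miR-146b are cut from separate hairpin precursors, and each hairpin gives a 5p and a 3p arm. The 4 mature arms were taken by name from a table of 1109 mature mouse miRNAs, and all 4 were found there. Small RNA libraries were read from RAW 264.7 cells, a mouse macrophage-like line that was established from a male mouse tumour induced with Abelson leukaemia virus and stands here for macrophages. Untreated cells gave 3 libraries (control), and cells kept for 48 h with ox-LDL (oxidized low-density lipoprotein) gave another 3 (oxLDL). Macrophages engulf ox-LDL and fill with lipid, which turns them into foam cells. The control columns are named for 0 h and no other time is stated for them, so treatment and time in culture cannot be told apart. No separate cultures are named either, so p-values measure the spread between these libraries, which may be technical.

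In macrophages the Mir146 gene is switched on by NF-kB after Toll-like receptor stimulation. The 5p arm of its product represses the adaptor TRAF6 and the kinase IRAK1, which pass the receptor signal on to NF-kB, and so acts in a negative feedback loop. Its paralog miR-146b carries the same seed, the stretch of bases at the 5′ end that a miRNA uses to find its targets. Neither those targets nor NF-kB itself was measured in these libraries.

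The 4 mature arms are shown first because the comparison of the paralogs turns on what they share. Sequences are those of RefSeq on GRCm38.p6, written 5′ to 3′ with the seed (bases 2 to 8) in capitals.
mmu-miR-146a-5p: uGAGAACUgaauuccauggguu
mmu-miR-146b-5p: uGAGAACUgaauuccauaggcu
mmu-miR-146a-3p: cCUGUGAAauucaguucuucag
mmu-miR-146b-3p: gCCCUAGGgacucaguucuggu
Both 5p arms are 22 bases long and match at 20 of 22 positions. Counted from 1 at the 5′ end of miR-146a-5p, the differences to miR-146b-5p are G18A and U21C, both outside the seed. A read that ended at or before base 17 would match both, and no source used here says how such reads were assigned. None of the 24 values of the 4 arms was a fraction of a read (tolerance 1e-06). The seed GAGAACU was held by these 2 entries alone among the 957 of 1109 entries with a sequence in the reference. The 3p arms match at 4 of 22 positions when laid side by side, and their seeds, CUGUGAA and CCCUAGG, differ.

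The precursors are shown with both mature arms in capitals, since the arm ratios given further on compare reads from either side of 1 hairpin.
Mir146: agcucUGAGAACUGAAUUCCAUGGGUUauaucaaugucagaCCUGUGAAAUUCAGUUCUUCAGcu
Mir146b: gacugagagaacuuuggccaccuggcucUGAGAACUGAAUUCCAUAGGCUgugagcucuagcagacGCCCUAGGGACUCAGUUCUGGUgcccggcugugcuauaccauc
The Mir146 hairpin (chr11:43374397-43374461, minus strand, GRCm38) overlaps no other annotated gene, and the nearest is the long non-coding RNA gene Gm12148, 11021 bp away on the other strand. The Mir146b hairpin (chr19:46342762-46342870, plus strand) lies within the protein-coding gene Mfsd13a, on the same strand, in the first intron of its transcript Mfsd13a-202.

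The libraries held between 5502826 and 7373185 miRNA reads. Levels are given in counts per 1e+06 reads (CPM) after edgeR's TMM scaling of the library totals. After edgeR's filter on low counts 475 of the 1109 entries were tested. Of these, 217 passed in the quasi-likelihood test at a Benjamini-Hochberg adjusted p of 0.05 (45.7%), 103 higher (21.7%) and 114 lower (24%) in oxLDL. With library totals alone the split was 82 higher and 158 lower, and after centring on the median entry 133 and 92. Over all tested entries the log2 fold change had a median of -0.13, and of -0.28 with library totals, and changes are to be read against that median. The miRNAs taken as myeloid markers summed to between 65481 and 78074 CPM in control and between 69507 and 75300.2 CPM in oxLDL. Nearly all of this was miR-142a, whereas miR-223-3p had means of only 73.5 CPM in control and 109 CPM in oxLDL. Traces of miRNAs that mark other cell types were uneven. Erythroid markers summed to between 64.2 and 213 CPM in control and between 32.5 and 60.2 CPM in oxLDL, muscle markers to between 75.1 and 476 and between 62.7 and 231 CPM, and the hepatocyte marker miR-122-5p to between 5.05 and 85.6 and between 1.97 and 11.9 CPM. In all of these control replicate 2 was the highest library. Endothelial miR-126a-3p lay between 276 and 478 CPM in control and between 104 and 268 CPM in oxLDL, fibroblast and smooth muscle markers between 3565 and 5681 and between 2336 and 5123 CPM, and lymphocyte miR-150-5p between 9.17 and 14.9 and between 3.87 and 6.57 CPM. The 5 epithelial markers summed to between 76.7 and 110.3 CPM in control and between 113 and 128 CPM in oxLDL, but miR-205-5p among them had a lower mean in oxLDL (1.16 against 7.25 CPM), as had miR-203-3p, which is described with the list. Of the fibroblast and smooth muscle markers, miR-145a-5p had 0 to 3 reads in each library. The libraries are labelled as a cell line, and the labels do not say where these reads come from. Their source and their part in the results on miR-146 were not tested.

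After ox-LDL the main arm of miR-146a rose 2.82 times and that of miR-146b 1.38 times. The call of miR-146b-5p was close to the threshold and was lost in 7 of 14 alternative analyses, whereas that of miR-146a-5p held in all 14. The ratio between these same-seed paralogs doubled, from about 3 to about 6 or 7 reads of miR-146a-5p for each read of miR-146b-5p. The minor arm miR-146a-3p rose 1.95 times, while miR-146b-3p did not pass the test and lay in the other direction. The share of all miRNA reads that came from the 4 arms went from 0.560, 0.699 and 0.654% in control to 1.69, 1.15 and 1.43% in oxLDL. In bulk libraries more RNA per cell and more cells that make it cannot be told apart.

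The abundant arm mmu-miR-146a-5p stood at 4345, 4953 and 4473 CPM in the control libraries and at 14988, 10662 and 13228 CPM in the oxLDL libraries. Every oxLDL library was more than 2 times the highest control, and the groups did not overlap, which held for 59.4% of all tested entries in either direction. Means were 4590.4 ± 321 and 12959 ± 2175 CPM (SD, n = 3). The log2 fold change was 1.50 (SE 0.138, 95% interval 1.18 to 1.82; edgeR adjusted p = 0.000137). By mean level it moved from place 38 to place 22 among all entries. In control its closest neighbours in that order were miR-142a-3p (5126 ± 508 CPM) and miR-24-3p (4486 ± 264 CPM), and in oxLDL miR-27a-3p (13038 ± 364 CPM) and miR-222-3p (11934 ± 2189 CPM). The ranges of all 4 neighbours overlapped that of miR-146a-5p. By fold, 28 of the 475 tested entries lay above it. Among the 79 tested entries with a control mean of at least 1000 CPM its fold was the second largest. By CPM gained (8369) it was in place 9 of 475.

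Its paralog mmu-miR-146b-5p stood at 1282, 1618 and 1369.8 CPM in control and at 2309, 1657 and 1931 CPM in oxLDL. The groups did not overlap, as for 59.4% of all tested entries, but the highest control and the lowest oxLDL library nearly touched. Means were 1423 ± 174 and 1966 ± 327 CPM (SD, n = 3), with a log2 fold change of 0.47 (SE 0.151, 95% interval 0.12 to 0.81; edgeR adjusted p = 0.0357). This call was close to the threshold. It was lost with library totals (log2 fold change 0.31, adjusted p = 0.159) and with a minimum mean of 10 CPM (0.35, adjusted p = 0.0822), and also without control replicate 1 (0.39, adjusted p = 0.128), control replicate 3 (0.40, adjusted p = 0.129), oxLDL replicate 1 (0.31, adjusted p = 0.150) or oxLDL replicate 3 (0.48, adjusted p = 0.0631), all in edgeR. By mean level miR-146b-5p went from place 70 to place 64. Its neighbours were miR-92a-1-5p (1437 ± 188 CPM) and miR-872-5p (1418 ± 149 CPM) in control, and miR-143-3p (2009.9 ± 1297 CPM) and miR-378c (1832 ± 80.1 CPM) in oxLDL, and it could not be separated from any of them by its spread.

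**Figure D1:**
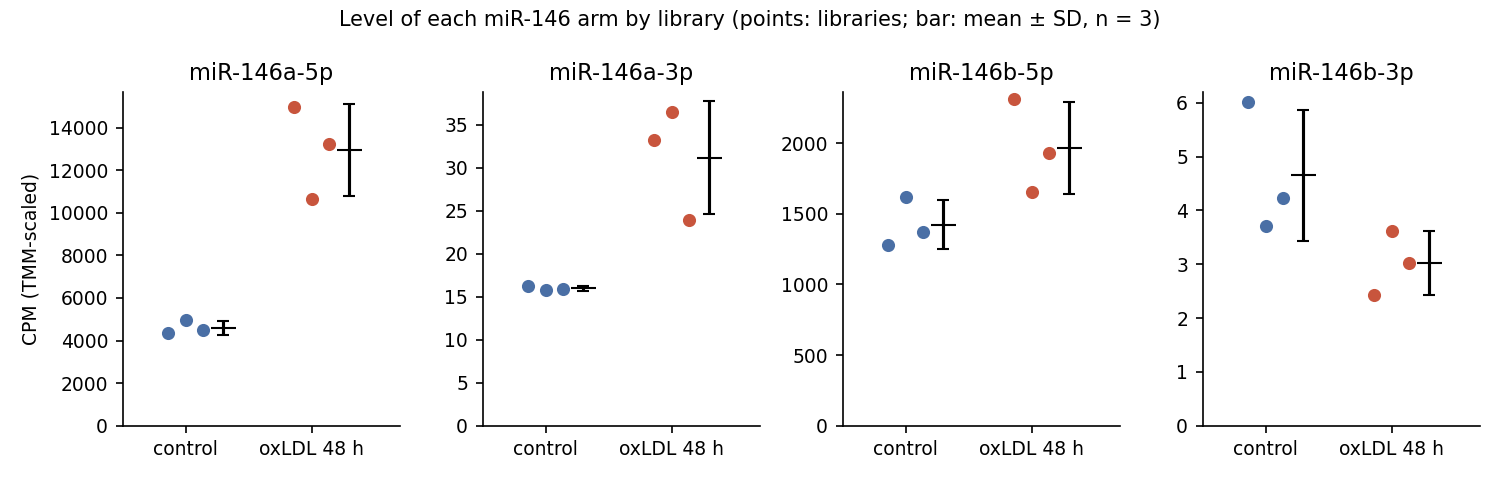
CPM of each miR-146 arm (vertical axes, each from 0) in the 3 control and 3 oxLDL libraries. Points are libraries and the bar beside them is the mean ± SD; the oxLDL points of miR-146a-5p (10662 to 14988) lie far above the controls (4345 to 4953), whereas those of miR-146b-5p (1657 to 2309) begin just above the highest control (1618).

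Both 5p arms went up and down together among replicates. Control replicate 2 was the highest and control replicate 1 the lowest control for both. In oxLDL, replicate 1 was the highest and replicate 2 the lowest library for both. How many other tested entries had the same order was not tested, so it need not be particular to the paralogs. Control replicate 2 was also the control with the most reads of erythroid, muscle and hepatocyte markers. Without this library the log2 fold change of miR-146a-5p was 1.53 (edgeR adjusted p = 0.000712). That fit still holds the traces in the other libraries, and their part in the change was not tested. The CPM of miR-146a-5p had a coefficient of variation of 6.98% in control and 16.8% in oxLDL, and that of miR-146b-5p was 12.2% and 16.7%. The ratio of their reads varied less, by 5.12% and 3.42%.

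That ratio, which does not depend on the scaling of the libraries, was 3.39, 3.06 and 3.27 in control and 6.49, 6.44 and 6.85 in oxLDL. The groups did not overlap, as for 56.4% of same-seed pairs, and the spread within each group was small beside the gap between them. Expressed as a share of both 5p arms, miR-146a-5p made up 77.2, 75.4 and 76.6% in control and 86.7, 86.6 and 87.3% in oxLDL. The widest Wilson 95% interval was 76.8 to 77.6%, in control replicate 1, and like all intervals on reads it covers counting error only. On the log2 scale the ratio was 1.69 ± 0.07 in control and 2.72 ± 0.05 in oxLDL (SD, n = 3), a difference of 1.03 (SE 0.076, 95% interval 0.83 to 1.22) or 2.04 times. It was tested with limma beside the ratios of all 140 pairs of tested entries with a common seed, of which 53 passed (37.9%), and its adjusted p was 0.000615. In the exact two-sided permutation test over the 6 libraries p was 0.1, the smallest that 3 against 3 can give. A change of this kind was not rare among same-seed pairs. In 27 of the 140 pairs the ratio changed more, and the median change in either direction was 0.45. Members of larger seed families, such as miR-98-5p, enter several pairs, so the pairs are not independent, and 2 pairs had identical reads. Among the 33 seeds held by exactly 2 tested entries, the miR-146 pair was in place 9 by size of change. Its spread between replicates was among the smallest, with a pooled SD of 0.063 in log2 ratio against a median of 0.22, place 5 of the 138 pairs whose reads were not identical.

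**Figure D2:**
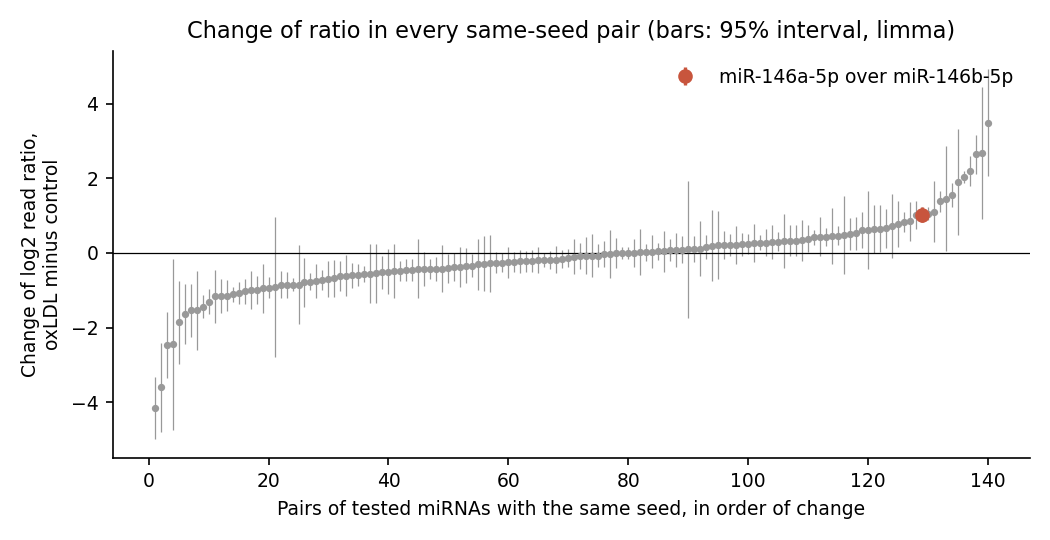
Change of the log2 read ratio from control to oxLDL (vertical axis) for each of the 140 same-seed pairs in order of change (horizontal axis), with 95% intervals from limma; the sign follows the alphabetical order of the names in a pair. The miR-146a-5p over miR-146b-5p pair, at 1.03, lies toward the upper end with a narrow interval (0.83 to 1.22), and 27 pairs changed more in either direction.

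Because both 5p arms carry the same seed, their levels were also added. The summed level was 5628, 6571 and 5842 CPM in control and 17296, 12319 and 15159 CPM in oxLDL. The lowest oxLDL library was well above the highest control. Means were 6014 ± 495 and 14925 ± 2497 CPM (SD, n = 3), 2.48 times, with an exact two-sided permutation p of 0.1, again the smallest possible. Of the increase in the sum, 93.9% was miR-146a-5p and 6.08% was miR-146b-5p. Adaptors ligate to some RNA ends more readily than to others, and a sum of reads need not be a sum of molecules. No other mature miRNA of the reference table had this seed, and miR-7217-3p, which shares bases 2 to 7 with it, is not among the entries listed.

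The 3p arms, the minor products of both hairpins, were read far less. The arm mmu-miR-146a-3p had 119, 119 and 116 reads in control and 178, 222 and 142 in oxLDL, which gave 16.3, 15.8 and 15.8 CPM and 33.2, 36.4 and 23.9 CPM. All oxLDL libraries were above all controls, as they were for 28.2% of all tested entries. Means were 16.0 ± 0.285 and 31.2 ± 6.53 CPM, with a log2 fold change of 0.96 (SE 0.195, 95% interval 0.51 to 1.42; edgeR adjusted p = 0.00494). The spread in control was smaller than counting error, since 119 reads have an exact Poisson 95% interval of 98.6 to 142.

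The arm mmu-miR-146b-3p had 44, 28 and 31 reads in control and 13, 22 and 18 in oxLDL. Its levels were 6.02, 3.71 and 4.23 CPM and 2.42, 3.61 and 3.02 CPM, so that the lowest control and the highest oxLDL library nearly met. The log2 fold change was -0.61 (SE 0.281, 95% interval -1.26 to 0.04; edgeR adjusted p = 0.104), which did not pass. It passed with library totals (log2 fold change -0.76, edgeR adjusted p = 0.0411). The value was -0.39 without control replicate 1, the library with 44 reads. At this depth the intervals of single libraries are wide, from 6.92 to 22.2 reads for the lowest count of 13 and from 32.0 to 59.1 for the highest.

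**Figure D3:**
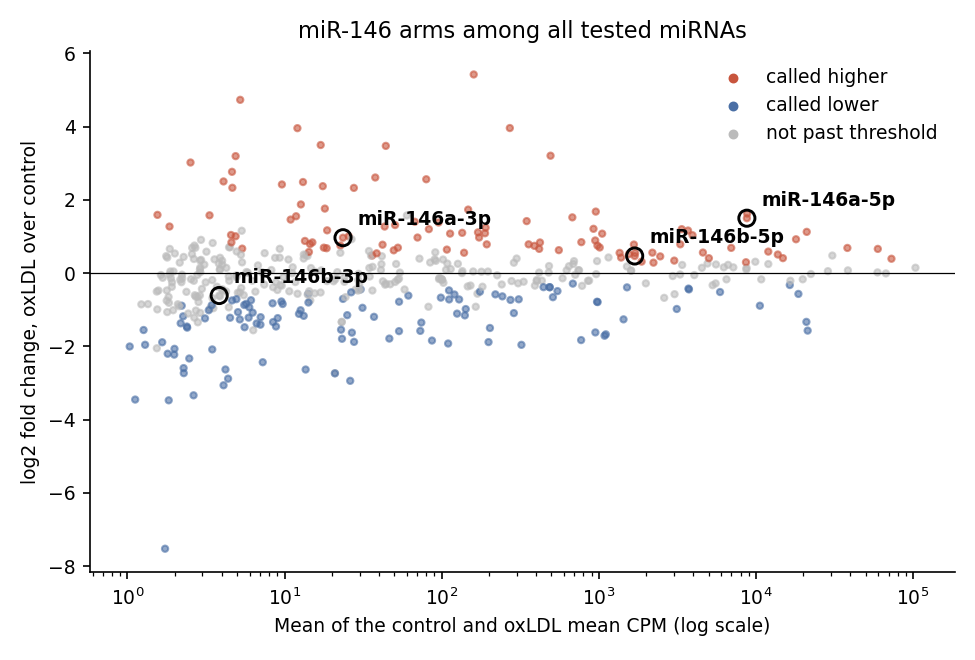
Each point is 1 of the 475 tested miRNAs, by the mean of its control and oxLDL levels in CPM (horizontal, log scale) and its log2 fold change (vertical), coloured by call in edgeR's test; the 4 miR-146 arms are circled. At 1.50, miR-146a-5p lies above nearly all miRNAs of similar level, miR-146b-5p is at 0.47, and the 3p arms, at 0.96 and -0.61, sit at low levels.

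Reads of the 5p and 3p arms come from opposite sides of 1 precursor, so their ratio compares what is kept from each. For miR-146a it was 267, 314 and 283 in control and 452, 293 and 554 in oxLDL, so oxLDL replicate 2 fell within the control range. For miR-146b it was 213, 437 and 324 in control and 954, 459 and 638 in oxLDL, and the groups did not overlap, as for 54.8% of hairpins. Among 124 hairpins with both arms at a mean of at least 10 reads, these 2 were strongly biased to the 5p arm, in places 5 and 3 by ratio in control and 3 and 2 in oxLDL. With limma over those 124 hairpins, 49 of which passed (39.5%), the log2 ratio of miR-146a changed by 0.54 (SE 0.262, 95% interval -0.06 to 1.15; adjusted p = 0.142). That of miR-146b changed by 1.05 (SE 0.348, 95% interval 0.24 to 1.86; adjusted p = 0.0458). The first passed without oxLDL replicate 2 (0.80, limma adjusted p = 0.0362) and was 0.34 without oxLDL replicate 3. The second was lost without control replicate 1 (0.78, limma adjusted p = 0.125), control replicate 3 (1.08, adjusted p = 0.0950), oxLDL replicate 1 (0.78, adjusted p = 0.112) or oxLDL replicate 3 (1.07, adjusted p = 0.0919). The hairpins were not shown to differ from each other. The difference between their log2 arm ratios was -0.10 ± 0.40 in control and -0.61 ± 0.43 in oxLDL (exact two-sided permutation p = 0.3, n = 3 per group).

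Between the 3p arms, miR-146a-3p over miR-146b-3p was 2.70, 4.25 and 3.74 in control and 13.7, 10.1 and 7.89 in oxLDL. All oxLDL ratios were above all control ratios, as they were for the 5p arms. How often this holds for other pairs without a common seed was not tested. On the log2 scale this ratio was 1.79 ± 0.33 in control and 3.33 ± 0.39 in oxLDL, with an exact two-sided permutation p of 0.1, the smallest possible. The 3p arms do not share a seed, so this ratio was not in the fit of same-seed pairs.

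**Figure D4:**
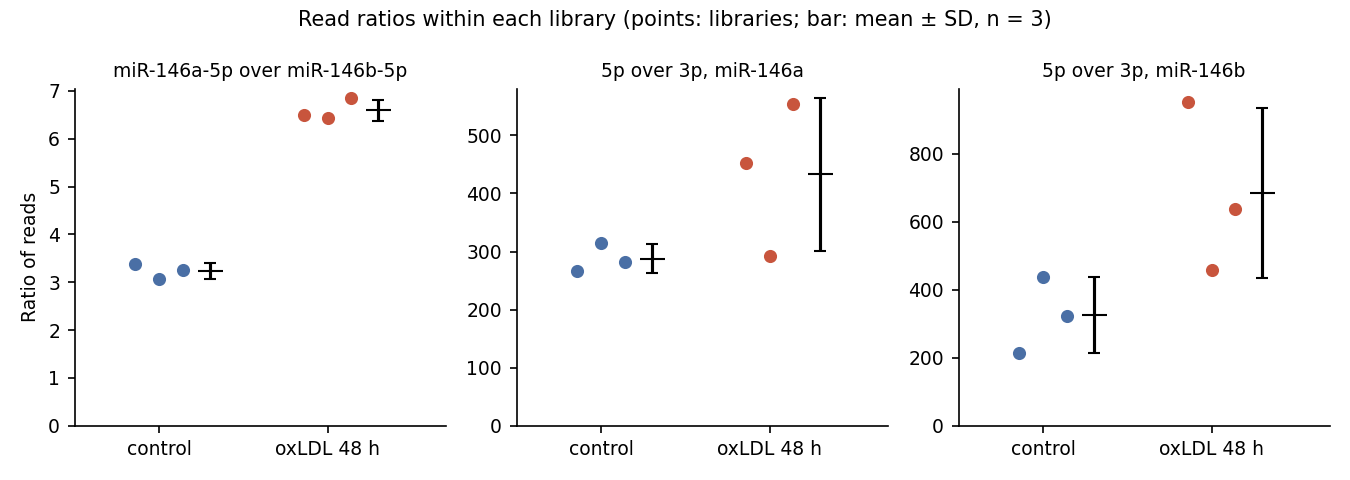
Ratio of reads within each library (vertical axes, each from 0) for miR-146a-5p over miR-146b-5p and for the 5p over the 3p arm of each hairpin, with the mean ± SD beside the 3 libraries of each group. The paralog ratio is tight and separate (3.06 to 3.39 and 6.44 to 6.85), whereas the arm ratios of miR-146a overlap between groups and those of miR-146b are spread from 459 to 954 in oxLDL.

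The miR-146 arms were set beside 24 other miRNA arms linked with Toll-like receptor or NF-kB signalling, all of them listed in the table and 23 tested. In oxLDL 3 of these 23 were higher and 8 lower, against 21.7% and 24% of all tested entries. Their median log2 fold change was -0.29 against -0.13 for all. The list holds both arms of several hairpins and members of the same clusters, so its members are not independent. The 3 that were higher were the hypoxia-linked miR-210-3p (log2 fold change 1.68, from 456 ± 30.3 to 1459.9 ± 221 CPM), miR-99b-5p (0.59) and let-7e-5p (0.31), the last 2 from 1 genomic cluster. In the list only miR-210-3p had a larger fold change than miR-146a-5p. The arms that were lower included both arms of the inflammatory miR-155, miR-155-3p (-1.27) and miR-155-5p (-0.64), which in macrophages is induced by the same receptors as miR-146a. They also included miR-222-3p (-1.33, from 30061 ± 4444 to 11934 ± 2189 CPM) and its cluster partner miR-221-3p (-0.33), which repress the cell cycle inhibitor p27, and miR-125a-5p (-0.89, from 13798 ± 1298 to 7438 ± 676 CPM), which shares the cluster of miR-99b-5p and let-7e-5p. The others that were lower were miR-181b-5p (-0.98), the epithelial miR-203-3p (-1.41, at 10.2 ± 1.89 and 3.83 ± 1.14 CPM) and miR-132-5p (-0.78).

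The remaining 12 tested list members did not pass. They included the main arm of the CREB-responsive miR-132, miR-132-3p (log2 fold change -0.29), miR-9-5p (-0.31), miR-147-3p (0.04) with at most 19 reads in a library, and the abundant miR-21a-5p (0.15). The count of higher members was 1 with library totals, without control replicate 1 and without control replicate 2, and 6 with median centring, while that of lower members ran from 6 to 10. In edgeR's test miR-155-5p was lost without control replicate 1 (adjusted p = 0.0628) or oxLDL replicate 3 (adjusted p = 0.0607), and miR-132-5p without oxLDL replicate 2 (adjusted p = 0.0665). The call of miR-99b-5p was lost with library totals (adjusted p = 0.0787) and without control replicate 1 (adjusted p = 0.0743) or 2 (adjusted p = 0.0573). That of let-7e-5p was lost without any 1 library other than oxLDL replicate 1 (adjusted p up to 0.172) and at a minimum mean of 10 CPM (adjusted p = 0.123). Scaling by library totals gave it an adjusted p of 0.213, and the unfiltered fit 0.132 (edgeR adjusted p). That of miR-221-3p was lost without any 1 library other than control replicate 3 (adjusted p up to 0.117), with RLE factors (adjusted p = 0.0550) and with DESeq2 (adjusted p = 0.121). The unfiltered fit gave it an adjusted p of 0.0687, and centring on the median gave 0.170 (edgeR adjusted p).

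**Figure D5:**
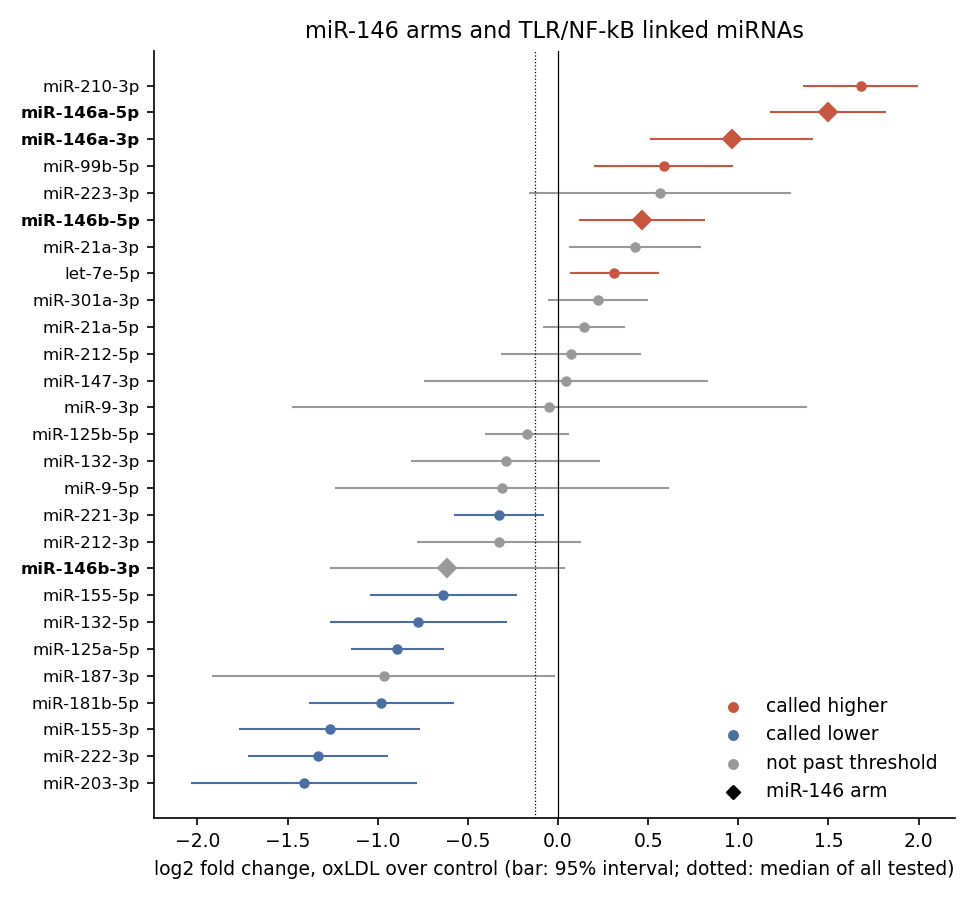
Log2 fold change (horizontal axis, with its 95% interval) of the 4 miR-146 arms (diamonds, bold) and the 23 tested list members (circles), in order of size, coloured by call in edgeR's test; the dotted line is the median of all tested entries, -0.13. Only miR-210-3p lies above miR-146a-5p, and both miR-155 arms lie below 0.

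The entries whose profiles were most like each paralog were found by the root mean square difference of log2 CPM over the 6 libraries, each profile centred on its mean, among 298 other tested entries with a mean of at least 10 CPM. For miR-146a-5p they were miR-183-5p (difference 0.150), miR-210-3p (0.166), miR-362-5p (0.181), miR-362-3p (0.220) and miR-183-3p (0.221), against a median of 0.783 over all entries. In these 5 the log2 fold change ran from 1.20 for miR-183-5p to 1.68 for miR-210-3p, and they include both arms of 2 hairpins. The difference between miR-146a-5p and miR-146b-5p themselves was 0.516, which put the paralog in place 63 of 298. For miR-146b-5p the closest were miR-24-1-5p (0.115), miR-30b-5p (0.131), miR-30a-3p (0.137), miR-29c-5p (0.154) and miR-142a-3p (0.156), against a median of 0.433. Their log2 fold changes ran from 0.23 to 0.58. With the paralogs 0.516 apart, lists that reach only to 0.221 and 0.156 could not share an entry.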

How the data were processed

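Libraries were made from gel-selected RNA of 14 to 36 nt with adaptors at both ends and sequenced by Illumina chemistry, per the labels' protocols. The deposited values are estimated counts per mature miRNA, unscaled, and 117 of the 6654 are not whole. Per the submitters' processing notes the genome is GRCm38.p5, and RefSeq sequences come from GRCm38.p6. The aligner, counter and miRNA database are not given in the sources used here.

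Columns were matched to titles by group and number, and counts were rounded. No 2 libraries agreed within sampling noise (lowest chi-square per degree of freedom 111). The main test was the quasi-likelihood test of edgeR (4.0.16, R 4.3.3) with TMM factors, filterByExpr and Benjamini-Hochberg adjustment over 475 entries. Ratios (pseudocount 0.5) were tested with limma 3.58.1, and single values with exact permutation tests. Profiles were compared as log2 CPM (prior count 2). Positions relative to genes come from GENCODE M21.

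The names given are the 4 arms, their neighbours in level, the listed miRNAs and the 5 nearest profiles of each 5p arm. These members, lists and rules were chosen with earlier results of these data known. Same-numbered libraries of the groups did not deviate together (correlations of deviations -0.30, -0.23 and -0.12), so they were not paired.

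The edgeR and limma steps were tested on simulated data drawn from the means and depths of these libraries. For entries, edgeR called 20 of 67 at a set change of 1.5 times, 36 of 64 at 2 times and 60 of 63 at 4 times. Of unchanged entries it called 1 of 269. At 2 times limma called 13 of 27 pair ratios and 7 of 19 arm ratios, and at 4 times 25 of 25 and 21 of 21. Changes of up to 2 times were thus often missed. Alternatives were DESeq2 1.42.0, limma-voom, RLE factors, library totals, a replicate block, no filter, a minimum mean of 10 CPM, the fits without 1 library each, a threshold of 0.01, a pseudocount of 2 and an arm minimum of 50 reads. Median centring and leaving out pairs with identical reads were added after seeing the data.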

Additional observations from a re-analysis of the deposited data

How the results depend on the processing

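The log2 fold changes of miR-146a-5p (1.35 to 1.63) and miR-146a-3p (0.81 to 1.12) kept their direction and their call in all 14 alternatives each, and the ratio of miR-146a-5p to miR-146b-5p in all 10 (0.99 to 1.06 in log2, limma adjusted p up to 0.0129). The summed 5p level was higher in oxLDL in all 9 (log2 1.16 to 1.44), with a permutation p that cannot go below 0.1. Leaving out 1 library at a time gave a log2 fold change of 0.31 to 0.58 for miR-146b-5p, a change of 0.78 to 1.30 in the arm ratio of miR-146b and of 0.34 to 0.80 in that of miR-146a, and 1 to 4 list members higher. Beside these, the call of miR-146b-5p was lost with library totals (log2 fold change 0.31) and at a minimum mean of 10 CPM (0.35), and miR-146b-3p passed with library totals (-0.76); the cause was not tested. Of the list, 1 member was higher with library totals and 6 with median centring. At a threshold of 0.01, 137 entries passed, 64 of them lower. Same-numbered libraries did not deviate together; with the replicate block 178 entries passed, the log2 fold change of miR-146b-5p was 0.46 (edgeR adjusted p = 0.0858), the arm ratio change of miR-146b 1.05 (limma adjusted p = 0.130), and neither passed. In the list the block also ended the calls of let-7e-5p (edgeR adjusted p = 0.135), miR-221-3p (0.111) and miR-132-5p (0.0575). The arm ratio of miR-146b at a minimum of 50 reads and miR-146b-3p at a mean of 10 CPM could not be fitted, since too few reads were left. Depth limits miR-146b-3p, with 13 to 44 reads a library, and the arm ratio that rests on it.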
